A study of Mus musculus with 9 samples.

Results

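The 10 genes described here code for the core of the basement membrane other than the laminins: the 6 type IV collagen chains (Col4a1 to Col4a6), nidogen 1 and nidogen 2 (Nid1 and Nid2), perlecan (Hspg2) and agrin (Agrn). They were taken by name from the 19369 genes listed in at least 1 sample, and all 10 were listed in every sample. RNA sequencing covered 9 samples of C57BL/6 mouse embryos, 3 at each of 3 stages, and no sample carried a mutation or treatment. E10.5 samples held periocular neural crest (pNC), the migratory mesenchyme around the early eye, left after dispase treatment and removal of the ectoderm, lens vesicle and optic cup. Samples of E14.5 and E16.5 held whole corneas, that is epithelium, stroma and the layer facing the anterior chamber together, and each sample pooled several eyes.

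A basement membrane is a thin sheet of matrix beneath epithelia and around blood vessels. Laminins assemble first on the cell surface, and type IV collagen forms the second, covalently cross-linked network. Nidogens bind both networks, and the heparan sulfate proteoglycans perlecan and agrin bind laminin and nidogen and hold growth factors. The type IV chains assemble into 3 kinds of trimer, α1α1α2, α3α4α5 and α5α5α6. The first occurs in nearly all basement membranes, and the others are known from kidney, skin, lung and several tissues of the eye, the cornea among them. The genes lie in pairs that point away from each other, so that each pair shares the stretch between the start sites.

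On GRCm38, RefSeq places Col4a1 at chr8:11198423-11312889 on the minus strand and Col4a2 at chr8:11312805-11449287 on the plus strand. Their gene spans overlap by 85 bases in RefSeq and by 22 in GENCODE. Col4a4 (chr1:82448419-82587034, minus) and Col4a3 (chr1:82586921-82722059, plus) overlap by 114 bases in RefSeq and lie 71 bases apart in GENCODE. The third pair, Col4a6 (chrX:141165403-141474095, minus) and Col4a5 (chrX:141475370-141689236, plus), is separated by 1274 bases in RefSeq. Nid1 lies at chr13:13437602-13512275, Nid2 at chr14:19751257-19811787 and Hspg2 at chr4:137468751-137570630, all on the plus strand, and Agrn at chr4:156165290-156197533 on the minus strand. Whether the libraries kept strand is not given in the sources used here, so reads from the bases that 2 of these genes share cannot be assigned to either one by strand.

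RefSeq windows of 300 bases, 250 before and 50 after a start site, were at hand for 8 of the 10 genes, Nid2 and Col4a3 being the others, with a second window for Agrn. They were searched on both strands for GGGCGG (a GC box), for CCAAT (the box of that name) and for TATAAA (the TATA box), which 35.7%, 37.4% and 13.6% of all 32851 such windows hold. No window of the 8 genes held TATAAA. The main window of Agrn held 12 GC boxes at 83.3% GC, that of Hspg2 5 at 70.3% GC, that of Col4a2 3 at 73.7% GC, and those of Col4a1, Nid1, Col4a5 and Col4a6 1 each, against a median GC content of 52.7% over all windows. Col4a5 and Col4a6, at 52.7% and 48.3% GC, were the members nearest to that median. The windows of Col4a1, Col4a2, Nid1 and Col4a5 held 1 CCAAT box each. Only the windows of Col4a5, Col4a6 and Hspg2 had a part outside every annotated gene, and these 3 parts are shown for that reason. Any link between the motifs and the mRNA changes was not tested. The parts are given on GRCm38.p6, from 5′ to 3′ on the strand of the gene, with capitals marking a CCAAT box in the first and GC boxes in the last:
Col4a5, chrX:141475169-141475369, plus strand: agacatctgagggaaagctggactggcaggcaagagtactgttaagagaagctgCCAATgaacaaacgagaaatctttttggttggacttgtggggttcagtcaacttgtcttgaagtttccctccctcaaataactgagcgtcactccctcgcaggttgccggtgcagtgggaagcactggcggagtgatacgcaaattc
Col4a6, chrX:141474096-141474326, minus strand: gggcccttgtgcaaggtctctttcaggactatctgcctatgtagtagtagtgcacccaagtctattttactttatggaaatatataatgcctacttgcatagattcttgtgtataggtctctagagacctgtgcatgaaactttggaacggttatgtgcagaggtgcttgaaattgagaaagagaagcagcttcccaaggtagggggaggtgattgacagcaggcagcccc
Hspg2, chr4:137468553-137468750, plus strand: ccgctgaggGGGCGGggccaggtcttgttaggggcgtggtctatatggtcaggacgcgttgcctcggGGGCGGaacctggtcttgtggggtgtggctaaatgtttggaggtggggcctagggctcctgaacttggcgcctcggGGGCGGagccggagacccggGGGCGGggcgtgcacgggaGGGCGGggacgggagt
Each stretch ends 1 base before the RefSeq start of its gene. A match describes these letters only, and binding was not measured.

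Totals of expected counts, the estimated number of reads per gene, ran from 8745161 to 9069023 per sample. Counting error was small for most members, larger for Col4a6 at E10.5 (66 to 96 expected counts) and largest for Col4a3 and Col4a4. Replicates of a stage differed by more than sampling noise (chi-square per degree of freedom 3.03 to 27.9), and E14.5 replicate 1 stood furthest from its stage. Markers of other cell types moved with stage. The summed FPKM (fragments per kilobase of transcript, scaled to the mapped fragments of a library and so a level per length) of 10 vascular endothelial markers was 204 to 317 in pNC, 80.1 to 134 in E14.5 corneas and 29.1 to 47.0 in E16.5 corneas, with no marker at 0. That of 10 markers of surface and corneal epithelium was 36.7 to 50.4, 684 to 2171 and 5320 to 7687, and 7 keratocyte markers summed to 104 to 160, 2171 to 5655 and 8800 to 10684, so the cornea labels were met. The 8 periocular mesenchyme markers summed to 440 to 472 at E10.5, which fits that label, and to 308 to 594 in the corneas. The 8 lens markers summed to between 1.27 and 7.55 in all samples, with Crygd and Lim2 at 0 at E10.5 and Lim2 at 0 at E16.5, and 6 retinal markers summed to 11.1 to 39.6 at E10.5 and at most 6.16 later. Pigment cell, white blood cell and muscle markers summed to at most 108, 73.5 and 22.1 in any sample, with Myod1 and Myog at 0 in both cornea stages. In such bulk samples, fewer cells of a type and less RNA per cell cannot be told apart, and the part of changing cell makeup in the results was not tested.

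**Figure D1:**
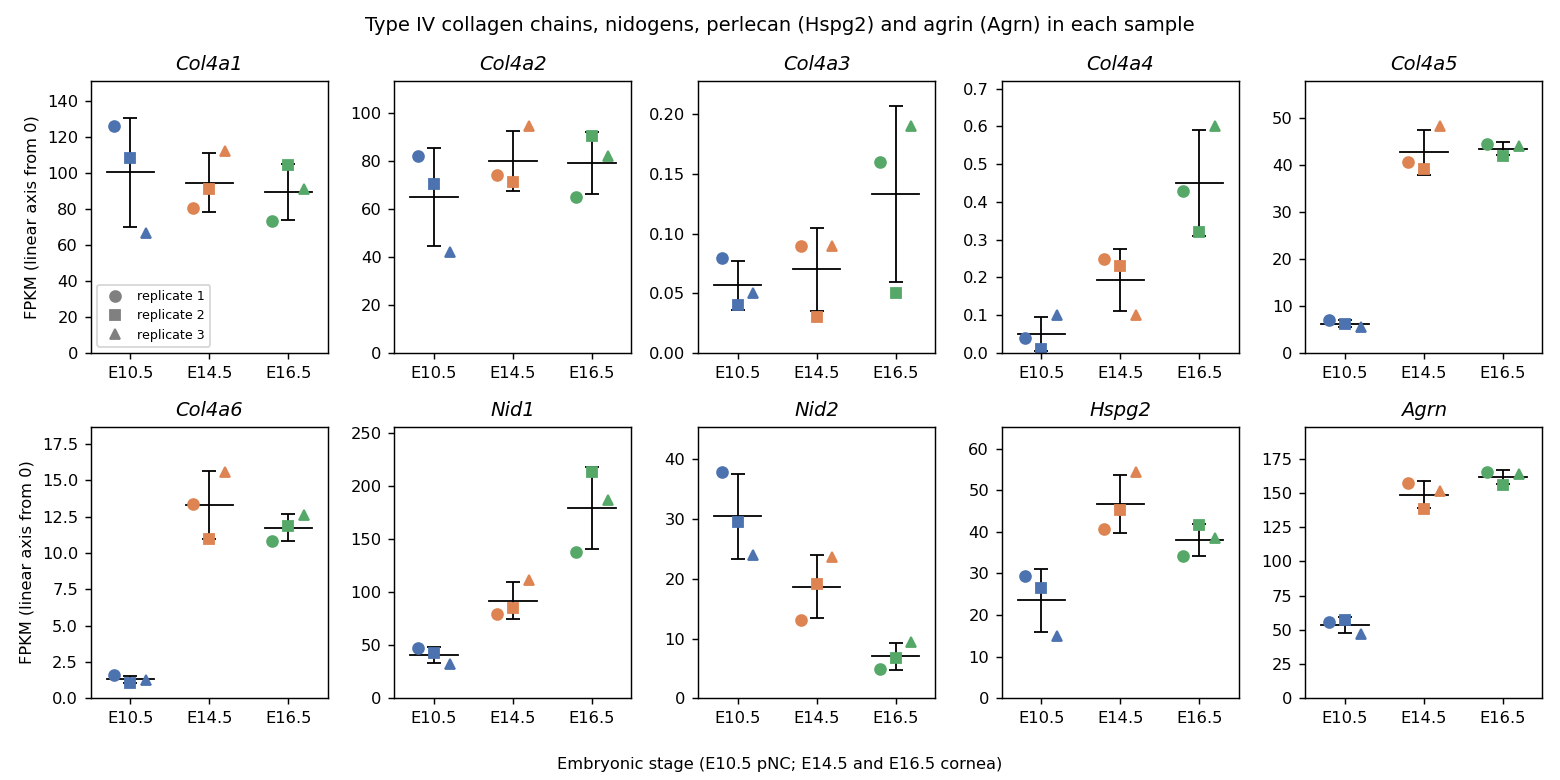
FPKM of each of the 10 genes (vertical axes, linear from 0, scaled per gene) in the 9 samples by embryonic stage, with the mean and SD of 3 samples as black bars and replicates 1, 2 and 3 as circles, squares and triangles. Col4a5, Col4a6 and Agrn step up between E10.5 and E14.5, Nid1 climbs and Nid2 descends at each stage, and the samples of Col4a1 and Col4a2 overlap between all stages.

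At E10.5 the most abundant member was Col4a1, with a mean of 100.2 ± 30.4 FPKM (SD, n = 3), followed by Col4a2 at 65.0 ± 20.5, Agrn at 53.6 ± 5.70, Nid1 at 41.2 ± 7.62, Nid2 at 30.4 ± 7.03 and Hspg2 at 23.6 ± 7.54. Samples of each neighbouring pair in that order overlapped. Col4a5 at 6.27 ± 0.764 and Col4a6 at 1.31 ± 0.260 lay below them without overlap, and Col4a3 and Col4a4 were at 0.0567 ± 0.0208 and 0.05 ± 0.0458. At E14.5 Agrn stood above all others at 149 ± 9.70 FPKM, and Col4a1, Nid1 and Col4a2 overlapped with each other at 94.6 ± 16.2, 92.2 ± 17.3 and 80.2 ± 12.6. Hspg2 and Col4a5 overlapped as well, at 46.7 ± 7.05 and 42.7 ± 4.86, as did Nid2 and Col4a6 at 18.7 ± 5.26 and 13.3 ± 2.33. By E16.5 Nid1 (179 ± 38.2) and Agrn (162 ± 5.31) led with overlapping samples, ahead of Col4a1 (89.4 ± 15.4) and Col4a2 (79.4 ± 12.9), which overlapped with each other. Col4a5 (43.6 ± 1.39), Hspg2 (38.1 ± 3.76), Col4a6 (11.8 ± 0.909) and Nid2 (7.08 ± 2.25) then followed without overlap between neighbours. Among the 18099 genes listed at E16.5, 1.49% had a higher mean FPKM than Nid1 and 1.71% a higher one than Agrn, whereas 47.6% were above Nid2.

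The stages were compared to see which basement membrane genes change while neural crest cells enter the cornea and its layers form. The ectoderm had been removed from the E10.5 samples, whereas the corneas held their epithelium. In every comparison with E10.5 given here, stage and the presence of this tissue therefore cannot be told apart. A gene was called with edgeR at an adjusted p under 0.05 over all 14771 genes tested if its log2 fold change was also 1 or more in size. Col4a3 had too few counts to be tested. In E14.5 against E10.5, 5 of the 9 members tested were called higher (Col4a4, Col4a5, Col4a6, Nid1 and Agrn), where 13.6% of all genes were. Col4a4 was tested there only because its E16.5 counts passed the filter on low counts, and with these 2 stages alone it was not tested and 4 members were higher. The edgeR count of members called lower was 0, where 7.97% of all genes were lower. At an unadjusted edgeR p under 0.05 that count was 1, namely Nid2, and DESeq2, limma and the NOISeq criterion also gave 0. In E16.5 against E10.5 the same 5 genes were higher, against 19.4% of all genes, and 1 member, Nid2, was lower, against 15.4%. Of the 9 tested, 2 members (Col4a4 and Nid1) were higher in E16.5 against E14.5, where 6.26% of all genes were, and again Nid2 alone was lower, where 5.47% were. In both comparisons with E16.5, Col4a4 passed the filter only through its E16.5 counts, the stage where it was highest, which favours a call. The NOISeq criterion, without such a filter, gave 4 members higher in E16.5 against E10.5, Col4a4 not among them, and 0 in E16.5 against E14.5. The median log2 fold change of the 9 members was 1.15, 1.74 and 0.15 in the comparisons above, in that order, and that of all genes was 0.01, 0.00 and -0.02. The member medians include Col4a4, which passed the filter through its E16.5 counts and lay above each of them (1.83, 3.22 and 1.39). They are given as a description. The first 2 comparisons share the E10.5 samples.

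**Figure D2:**
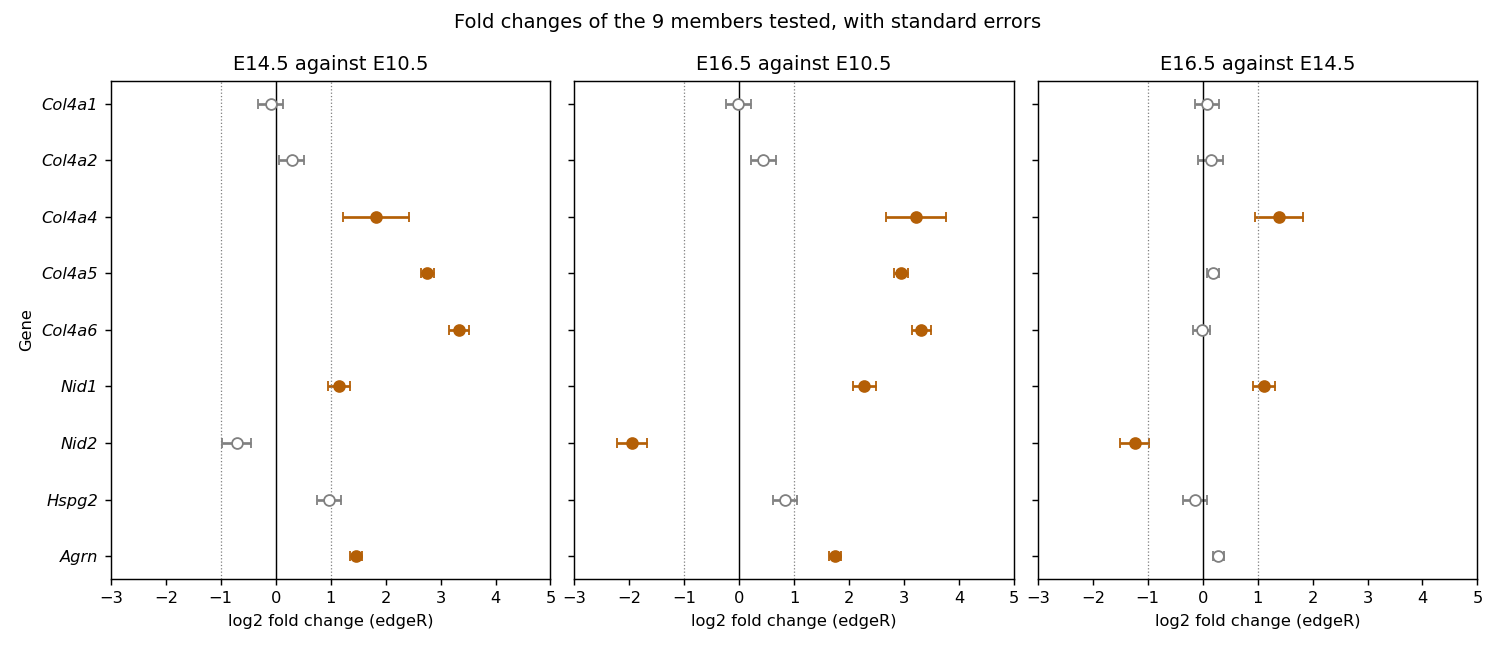
log2 fold change (horizontal axes) of the 9 members tested in each of the 3 stage comparisons, with edgeR standard errors as bars, called genes as filled points, other genes as open points and dotted lines at a change of 1 in either direction. Col4a5, Col4a6 and Agrn lie at similar values in both comparisons with E10.5 (2.76 and 2.94 for Col4a5), and between the cornea stages Col4a4, Nid1 and Nid2 lie beyond the lines.

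Col4a1 and Col4a2, the chains of the widespread α1α1α2 network, were high at every stage and not called in any comparison. Col4a1 stood at 126, 108 and 66.6 FPKM in the 3 E10.5 samples, at 80.4, 91.1 and 112 at E14.5, and at 73.3, 104 and 90.8 at E16.5. The lowest and the highest value of this gene were both from E10.5, so every other sample lay within the range of that stage. Its log2 fold change was -0.09 (SE 0.23, edgeR adjusted p = 0.745) in E14.5 against E10.5 and -0.01 (SE 0.23, adjusted p = 0.960) in E16.5 against E10.5. Col4a2 stood at 82.1, 70.6 and 42.3 FPKM at E10.5, at 74.5, 71.4 and 94.6 at E14.5, and at 65.3, 90.6 and 82.3 at E16.5. The stages overlapped again, and the log2 fold change was 0.29 (SE 0.23, edgeR adjusted p = 0.291) and 0.44 (SE 0.23, adjusted p = 0.105) against E10.5. E10.5 replicate 3 was lowest of its stage for Col4a1, Col4a2, Col4a5, Nid1, Nid2, Hspg2 and Agrn, and it also had the lowest sums of vascular (204 against 305 and 317), retinal (11.1 against 32.9 and 39.6), keratocyte (104 against 139 and 160), lens and muscle markers of its stage. Its periocular mesenchyme sum was the highest of the stage (472 against 455 and 440), and its epithelial sum was the middle one (47.3). In E16.5 against E14.5 neither gene passed the test (edgeR adjusted p = 0.812 for Col4a1 and 0.650 for Col4a2). With standard errors of 0.23, small changes of either gene were not detectable.

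Within a sample, the Col4a2 mRNA came closer to the Col4a1 mRNA in the corneas. In the 3 E10.5 samples Col4a1 was 1.53-, 1.53- and 1.57-fold above Col4a2, in the E14.5 samples 1.08-, 1.28- and 1.19-fold, and in the E16.5 samples 1.12-, 1.15- and 1.10-fold. The E10.5 ratios thus lay apart from the 6 cornea ratios. The log2 ratio of Col4a2 to Col4a1 was -0.63 ± 0.02, -0.24 ± 0.12 and -0.17 ± 0.03 (SD, n = 3), and differed between stages by a two-sided exact permutation test over all 1680 assignments of samples to stages (p = 0.0179, adjusted p = 0.0357 over the 6 within-sample values compared). Without E10.5 replicate 2, E14.5 replicate 2 or E14.5 replicate 3, the exact test gave an adjusted p of 0.0536 each time.

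Col4a5 and Col4a6, which code for the chains of the α5α5α6 network, were low in pNC and rose in the cornea. Col4a5 was at 7.08, 6.18 and 5.56 FPKM at E10.5, at 40.6, 39.3 and 48.3 at E14.5, and at 44.6, 42.0 and 44.1 at E16.5. All 6 cornea samples lay above all pNC samples, and the cornea stages overlapped. The mean FPKM was 6.81-fold higher at E14.5 and 6.94-fold higher at E16.5 than in pNC, and the log2 fold change was 2.76 (SE 0.12, edgeR adjusted p = 9.04e-08) and 2.94 (SE 0.12, adjusted p = 4.15e-08). Between the cornea stages it was 0.19 (SE 0.11, edgeR adjusted p = 0.226). Col4a6 was at 1.59, 1.08 and 1.25 FPKM at E10.5, at 13.4, 10.9 and 15.6 at E14.5, and at 10.8, 11.9 and 12.6 at E16.5. The samples fell apart in the same way as those of Col4a5. Its mean FPKM was 10.2-fold higher at E14.5 and 9.00-fold higher at E16.5 than in pNC, and the log2 fold change was 3.34 (SE 0.18, edgeR adjusted p = 2.42e-07) and 3.32 (SE 0.18, adjusted p = 1.36e-07). Epithelial markers rose between the same stages. The E14.5 sample with the highest epithelial sum (replicate 1, 2171 against 684 and 809) was the middle one for both genes, and the E16.5 sample with the highest sum (replicate 1, 7687 against 5320 and 5379) had the highest Col4a5 and the lowest Col4a6. The order of samples by this sum mainly follows keratin mRNA, such as Krt5 at 343 to 1042 FPKM at E14.5. Epcam ranged there from 36.5 to 41.4 FPKM, Trp63 from 38.0 to 46.2 and Cdh1 from 35.1 to 58.1. The part of the epithelium in the rise of Col4a5 and Col4a6 was not tested.

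Col4a5 stayed the more abundant of the pair. It was 4.42- to 5.68-fold above Col4a6 at E10.5, 3.03- to 3.59-fold at E14.5 and 3.49- to 4.13-fold at E16.5. The log2 ratio of Col4a6 to Col4a5 was -2.27 ± 0.21, -1.69 ± 0.13 and -1.89 ± 0.13 (SD, n = 3; exact permutation p = 0.0107, adjusted p = 0.0321). Without E10.5 replicate 2, whose ratio was the lowest of all, the difference between E16.5 and E10.5 was 0.26 in place of 0.38 (exact permutation, adjusted p = 0.0696), and without E14.5 replicate 3 the adjusted p of the exact test was 0.0536. Across the 9 samples, log2(FPKM + 1) of Col4a5 and Col4a6 had a Pearson correlation of 0.995, and Col4a5 and Agrn one of 0.994, as a description of samples that share the step from pNC to cornea.

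**Figure D3:**
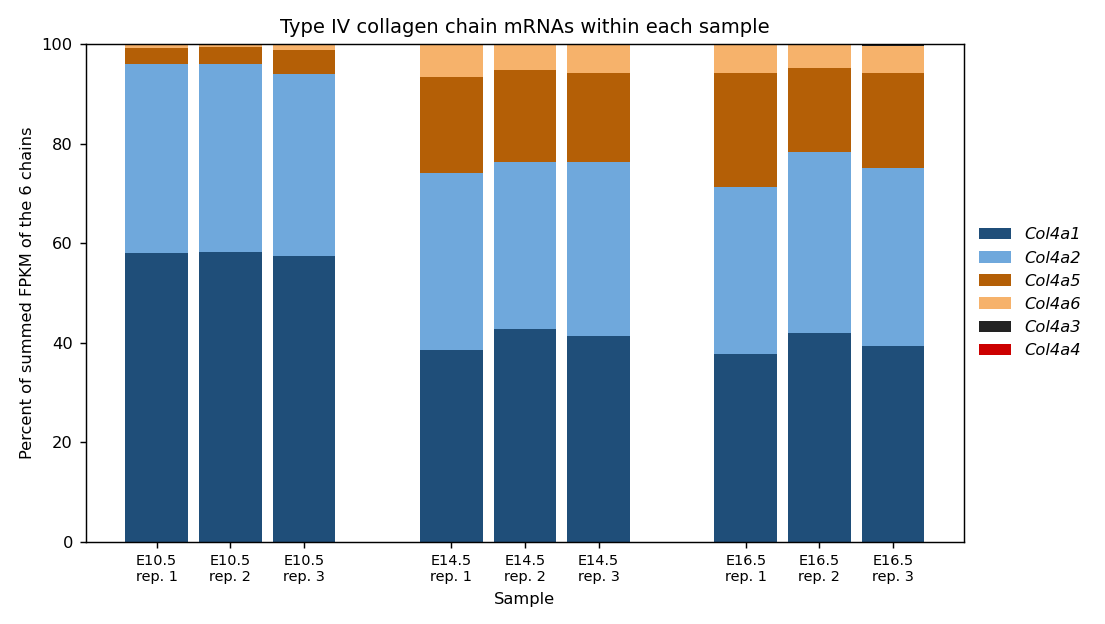
Share of each type IV collagen chain in the summed FPKM of the 6 chains (vertical axis, percent) in each of the 9 samples. Col4a1 and Col4a2 make up 94.0% to 96.1% of the bar in the pNC samples and 71.2% to 78.2% in the cornea samples, and the shares of Col4a3 and Col4a4 are too small to be seen.

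The mix of type IV collagen mRNAs was not the same in pNC and cornea. Col4a1 and Col4a2 together gave 95.3 ± 1.17% of the summed FPKM of the 6 chains in pNC, 75.6 ± 1.33% in the E14.5 cornea and 74.8 ± 3.50% in the E16.5 cornea (SD, n = 3). Col4a5 and Col4a6 gave 4.59 ± 1.11%, 24.3 ± 1.29% and 24.9 ± 3.43%. The sum of all 6 chains was 173 ± 51.7, 231 ± 34.5 and 225 ± 27.6 FPKM. Of the single chains, Col4a1 went from 57.9 ± 0.371% to 40.9 ± 2.23% and 39.6 ± 2.08%, while Col4a2 was at 37.4 ± 0.797%, 34.7 ± 1.07% and 35.2 ± 1.48%. The share of Col4a1 and Col4a2 differed between stages (exact permutation p = 0.0286, adjusted p = 0.0429). Without E10.5 replicate 2 the adjusted p of the exact test was 0.0571, and without E14.5 replicate 2 or replicate 3 it was 0.0536. The shares of single chains are given as a description.

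Col4a3 and Col4a4, which join the α5 chain in the α3α4α5 network of the kidney glomerulus and other sites, were near the limit of detection. Col4a3 had 3 to 6 expected counts per sample in pNC, 2 to 7 in E14.5 corneas and 4 to 15 in E16.5 corneas, that is 0.03 to 0.19 FPKM in all samples. Without a filter on low counts it differed between E10.5 and E16.5 by 1.39 on the log2 scale (edgeR adjusted p = 0.0754). It was tested and called higher in that comparison without E14.5 replicate 1 (1.40, edgeR adjusted p = 0.0499) or replicate 2 (1.40, 0.0439), and without E16.5 replicate 2 (1.77, 0.0181). It was tested but not called without E10.5 replicate 1, 2 or 3 (edgeR adjusted p = 0.0657, 0.157 and 0.119) or E14.5 replicate 3 (0.0652). DESeq2 did not call it either (adjusted p = 0.126). In the fits with a sample left out it passed the filter through its E16.5 counts. Col4a4 had 3.09, 1.02 and 7.12 expected counts at E10.5, 17.0, 16.2 and 7.19 at E14.5, and 30.0, 22.3 and 41.9 at E16.5. Every E16.5 sample lay above every other sample, whereas E14.5 replicate 3 was level with E10.5 replicate 3. In FPKM these are 0.04, 0.01 and 0.10, then 0.25, 0.23 and 0.10, then 0.43, 0.32 and 0.60. Its log2 fold change was 1.83 (SE 0.60, edgeR adjusted p = 0.0229) in E14.5 against E10.5, 3.22 (SE 0.54, adjusted p = 2.87e-04) in E16.5 against E10.5 and 1.39 (SE 0.44, adjusted p = 0.0317) between the cornea stages, all resting on few reads. The E10.5 samples with 3.09 and 1.02 counts lay at about the floor of 3 counts, and without the E16.5 samples the gene had too few counts to be tested. The first of these changes was no longer called without E10.5 replicate 1 (1.70, edgeR adjusted p = 0.0707), E10.5 replicate 2 (1.38, 0.0805), E14.5 replicate 1 (1.62, 0.0555) or E14.5 replicate 2 (1.69, 0.0612), and came to 2.67 without E10.5 replicate 3. From E10.5 to E16.5 the change ran from 2.77 without E10.5 replicate 2 to 4.06 without E10.5 replicate 3. It passed the edgeR test each time, but not the NOISeq criterion (probability 0.422), and limma on log2(FPKM + 1) without a filter gave 0.46 on that compressed scale, under the size of a call. Likewise the last was not called without E14.5 replicate 2 (1.53, edgeR adjusted p = 0.0662) or replicate 3 (1.09, 0.107), nor without E16.5 replicate 1 (1.42, 0.0758) or replicate 3 (1.13, 0.133). At E16.5 Col4a3 and Col4a4 together came to 0.265 ± 0.103% of type IV collagen FPKM (SD, n = 3). The log2 ratio of Col4a4 to Col4a3 was -0.43 ± 1.16, 1.37 ± 1.22 and 1.81 ± 0.57, and its difference between stages did not pass the exact permutation test (p = 0.0750, adjusted p = 0.0750).

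The nidogens, which link laminin to type IV collagen, went in opposite directions. Nid1 was at 47.5, 43.2 and 32.7 FPKM at E10.5, at 79.7, 85.0 and 112 at E14.5, and at 138, 214 and 187 at E16.5. No sample of one stage overlapped with another stage. The log2 fold change was 1.15 (SE 0.20, edgeR adjusted p = 6.95e-04) in E14.5 against E10.5, 2.28 (SE 0.21, adjusted p = 3.56e-06) in E16.5 against E10.5 and 1.12 (SE 0.20, adjusted p = 0.00233) in E16.5 against E14.5. Both steps of about the called size fell just under it when 1 library was left out: the earlier one was 0.97 (edgeR adjusted p = 0.00246) without E14.5 replicate 3, and the later one 0.97 (adjusted p = 0.0110) without E16.5 replicate 2.

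Nid2 was at 37.8, 29.5 and 23.9 FPKM at E10.5, at 13.2, 19.1 and 23.7 at E14.5, and at 4.99, 6.78 and 9.46 at E16.5. The E14.5 samples lay below those of E10.5, by a small margin between the third replicates, and all E16.5 samples lay below both. Its log2 fold change was -0.71 (SE 0.26, edgeR adjusted p = 0.0350) in E14.5 against E10.5, which did not reach the size asked of a call, -1.95 (SE 0.27, adjusted p = 7.28e-05) in E16.5 against E10.5 and -1.24 (SE 0.27, adjusted p = 0.00571) in E16.5 against E14.5. The mean FPKM was 4.29-fold lower at E16.5 than at E10.5. E14.5 replicate 1, with the highest epithelial and keratocyte marker sums and the lowest vascular (80.1 against 129 and 134) and periocular mesenchyme sums (394 against 562 and 594) of its stage, also had the lowest Col4a1, Nid1, Nid2 and Hspg2 of that stage. Without it the log2 fold change of Nid2 from E10.5 to E14.5 was -0.51. The sum of the vascular endothelial markers fell over the same stages as Nid2, although Kdr among them did not (means of 26.8, 30.3 and 26.2 FPKM). The part of vascular cells in the fall of Nid2 was not tested.

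Taken within a sample, the distance between the nidogens widened at each stage. Nid1 was 1.26- to 1.47-fold above Nid2 at E10.5, 4.45- to 6.04-fold at E14.5 and 19.7- to 31.4-fold at E16.5. The log2 ratio of Nid2 to Nid1 was -0.45 ± 0.11, -2.33 ± 0.23 and -4.69 ± 0.35 (SD, n = 3; exact permutation p = 0.00357, the smallest this design can give, adjusted p = 0.0214). Pairs of stages alone, with 3 samples against 3, cannot go below an exact permutation p of 0.1, which all 3 pairs reached. Across the 9 samples, Nid1 and Nid2 had a Pearson correlation of -0.805 in log2(FPKM + 1), given as a description.

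**Figure D4:**
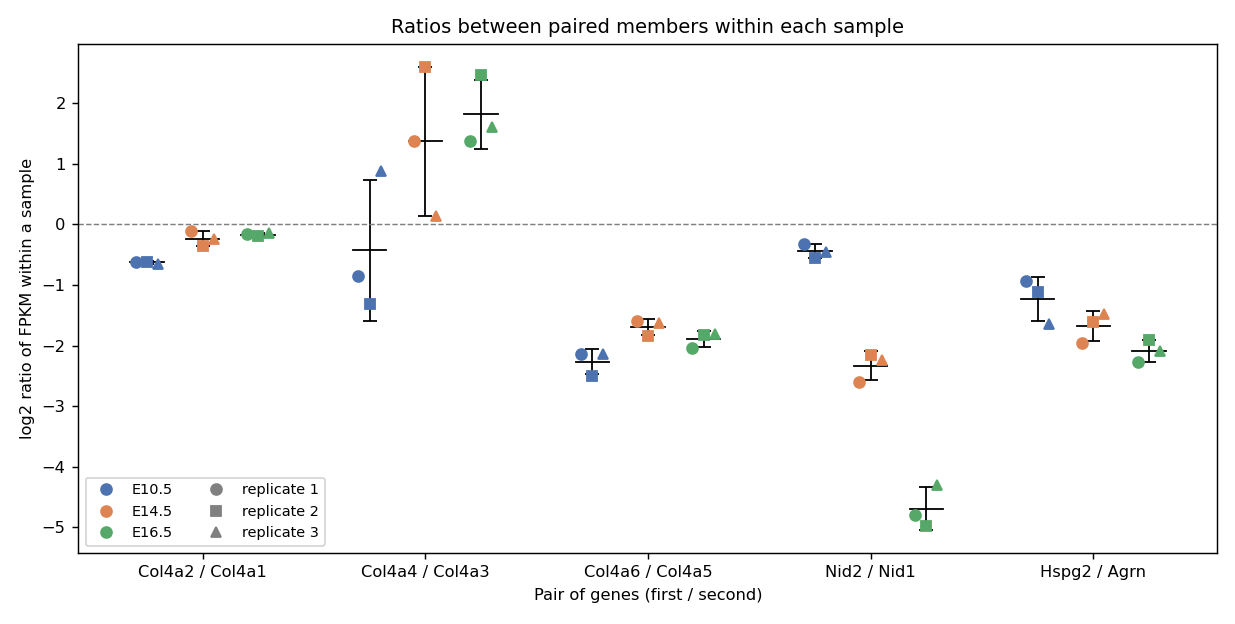
log2 ratio of FPKM between paired members (vertical axis) within each of the 9 samples, with colours for stage, shapes for replicate and black bars for the mean and SD of 3 samples. The ratio of Nid2 to Nid1 steps down at each stage without overlap, and that of Col4a4 to Col4a3, which rests on few reads, is spread widely.

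The proteoglycans differed in size of change. Agrn, known for gathering acetylcholine receptors at the nerve-muscle synapse and found in many epithelial basement membranes, was at 56.1, 57.6 and 47.1 FPKM at E10.5, at 157, 138 and 151 at E14.5, and at 165, 156 and 164 at E16.5. The cornea samples lay far above those of pNC, and the E16.5 range overlapped with that of E14.5. The mean FPKM was 2.78-fold and 3.02-fold higher than in pNC, and the log2 fold change was 1.46 (SE 0.10, edgeR adjusted p = 1.59e-06) and 1.74 (SE 0.11, adjusted p = 2.58e-07). Between E14.5 and E16.5 it was 0.28 (SE 0.10, edgeR adjusted p = 0.0545). Hspg2, whose long core protein is found in nearly all basement membranes and around vessels, was at 29.3, 26.4 and 15.03 FPKM at E10.5, at 40.6, 45.2 and 54.4 at E14.5, and at 34.1, 41.6 and 38.5 at E16.5. All cornea samples lay above all pNC samples here too. The log2 fold change of 0.98 (SE 0.22, edgeR adjusted p = 0.00307) at E14.5 and of 0.84 (SE 0.22, adjusted p = 0.00508) at E16.5 against E10.5 passed the test but stayed under the size asked of a call.

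Single libraries moved Hspg2 across that size. The E14.5 change from E10.5 was 1.16 without E10.5 replicate 1, 1.06 without E10.5 replicate 2, 1.08 without E14.5 replicate 1 and 1.01 without E14.5 replicate 2, and 0.73 without E10.5 replicate 3. The E16.5 change was 1.03 without E10.5 replicate 1 and 0.59 without E10.5 replicate 3. Agrn was 1.92- to 3.13-fold above Hspg2 at E10.5, 2.78- to 3.87-fold at E14.5 and 3.74- to 4.85-fold at E16.5. The log2 ratio of Hspg2 to Agrn was -1.24 ± 0.37, -1.68 ± 0.25 and -2.09 ± 0.19 (SD, n = 3; exact permutation p = 0.0357, adjusted p = 0.0429). The adjusted p of the exact permutation test lay above 0.05 without E10.5 replicate 1 (0.0814) or replicate 2 (0.0771), E14.5 replicate 2 (0.0821) or replicate 3 (0.0607), and E16.5 replicate 1 (0.129) or replicate 3 (0.124).

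The genes whose pattern was most like that of a member were sought by the Pearson correlation of log2(FPKM + 1) over the 9 samples among 10942 genes with a mean of at least 5 FPKM in some stage. Radil was nearest to both Agrn (r = 0.998) and Col4a5 (r = 0.997), with mean FPKM of 1.24, 9.98 and 10.8 by stage. Agrn was followed by Tspoap1 (r = 0.998) and Sdk2 (r = 0.997), and Col4a5 by Axl and Endod1 (both r = 0.996). Col4a6 was most like the small proteoglycan gene Fmod (r = 0.997), then Zfp862-ps and Axl (both r = 0.996). For Nid1 the nearest gene was Col3a1, a fibrillar collagen of 227, 593 and 1458 FPKM by stage (r = 0.996), then Eif2ak3 (r = 0.994) and the microfibril gene Mfap2 (r = 0.993). Nid2 was most like Mllt1 (r = 0.995), Kif21b (r = 0.990) and Znrf1 (r = 0.989), and Hspg2 was close to Ephb2 (r = 0.981) and Ptprm (r = 0.974). Likeness was lower for Col4a1, with Sdc3 (r = 0.940), Kif26a (r = 0.936) and Rnf216 (r = 0.934), and for Col4a2, with Selenon (r = 0.955), Aplp1 (r = 0.948) and Cant1 (r = 0.944). Such correlations describe 9 samples that share 3 stages.

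Laminins, the partners on which these components assemble, changed by chain. Of 11 laminin chain genes, 6 rose and 1 fell in E14.5 against E10.5, where 13.6% of all genes rose and 7.97% fell. In E16.5 against E10.5, 7 rose and 2 fell, where 19.4% and 15.4% of all genes did. Between the cornea stages 3 rose and 2 fell, where 6.26% and 5.47% did. Large rises were seen for Lama3 and Lamb3, chains of epithelial laminins. Lama3 went from a mean of 0.0833 to 12.1 FPKM (log2 fold change 7.28, SE 0.47, edgeR adjusted p = 3.99e-07) and Lamb3 from 0.163 to 12.6 (6.37, SE 0.56, adjusted p = 2.51e-06). At E10.5 Lama3 was at 0.08 to 0.09 FPKM and Lamb3 at 0.05 to 0.25, so the sizes of these changes rest on very low values. Both spread widely at E14.5, Lama3 from 2.55 to 7.03, as did the epithelial marker sum. Lama5, the α chain of many epithelial laminins, rose from 5.48 ± 0.588 to 52.0 ± 7.06 FPKM (SD, n = 3). Lama4, a chain of vascular laminins, fell from 12.8 to 1.95 FPKM (-2.57, SE 0.34, edgeR adjusted p = 4.75e-05), and the low Lamc3 fell from 2.91 to 0.310. Lamc1, the γ chain of most laminins, went from 22.7 ± 4.67 to 40.2 ± 3.99 FPKM with a log2 fold change of 0.98 (SE 0.15, edgeR adjusted p = 1.40e-04), just under the size of a call. The median log2 fold change of the 11 chains from E10.5 to E16.5 was 1.99.

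**Figure D5:**
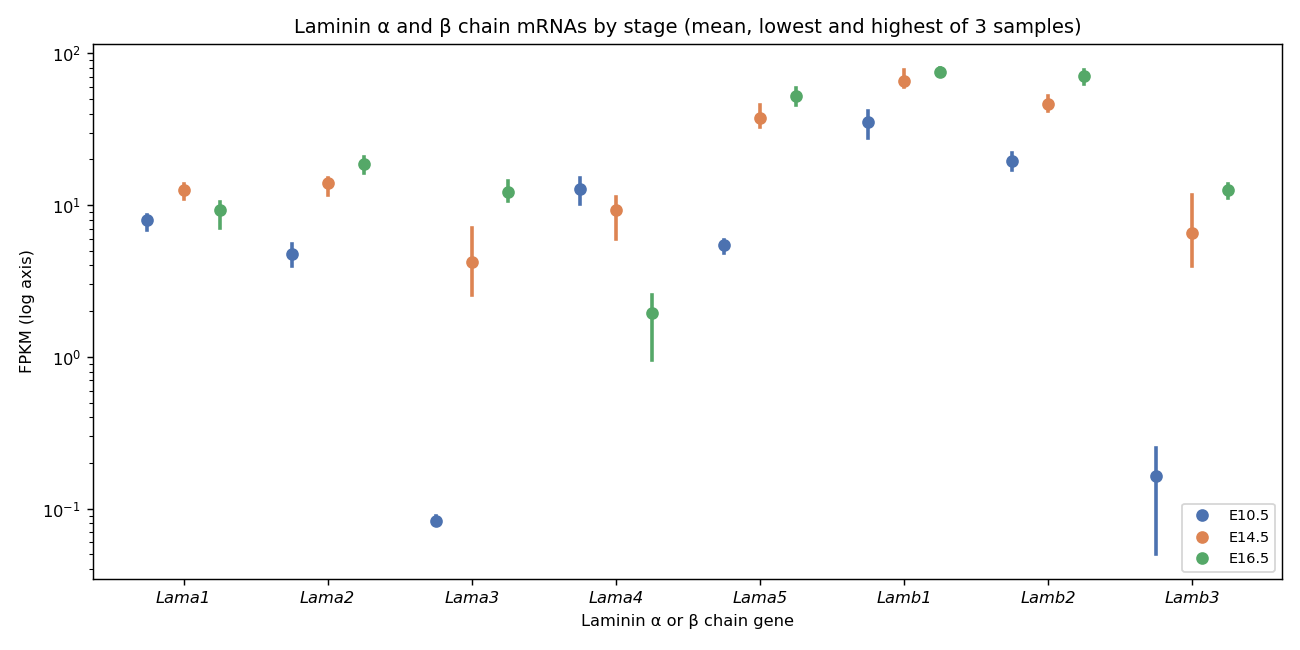
FPKM (vertical axis, log scale) of 8 laminin α and β chain genes by stage, with the mean of 3 samples as a point and the lowest and highest sample as the ends of a line. Lama3 and Lamb3 start below 1 FPKM at E10.5 and end above 10, whereas Lama4 descends.

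Among 13 other basement membrane genes, 8 rose and 3 fell from E10.5 to E14.5 (13.6% and 7.97% of all genes), and 9 rose and 3 fell from E10.5 to E16.5 (19.4% and 15.4% of all genes). Between E14.5 and E16.5, 1 rose and 3 fell (6.26% and 5.47% of all genes). Smoc2, a calcium-binding matrix protein, went from 2.75 to 108 FPKM (log2 fold change 5.44, SE 0.22, edgeR adjusted p = 3.81e-08), Ntn4, a laminin-like netrin, from 1.77 to 38.8 (4.60, SE 0.25, adjusted p = 1.36e-07), and Sparc, which binds collagen IV, from 161 to 1850.4 (3.67, SE 0.25, adjusted p = 5.65e-07). In the other direction, Col15a1, a collagen of vascular and muscle basement membranes, fell from 18.0 to 0.820 FPKM (-4.30, SE 0.46, edgeR adjusted p = 1.05e-05), Frem1 from 17.9 to 0.940 (-4.12, SE 0.51, adjusted p = 3.10e-05) and Smoc1 from 12.5 to 0.650 (-4.11, SE 0.34, adjusted p = 1.77e-06). Smoc1 and Smoc2, which are paralogs as the nidogens are, thus also went in opposite directions.

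The type IV chains depend on enzymes and chaperones that fold, modify and cross-link them. Of 12 such genes, 1 rose and 1 fell in E14.5 against E10.5, near the 13.6% and 7.97% of all genes that did. In E16.5 against E10.5, 6 rose and 6 were not called, where 19.4% of all genes rose, and 2 rose between the cornea stages, where 6.26% did. The largest rises were those of the prolyl 3-hydroxylase gene P3h1 from 17.2 to 91.4 FPKM (log2 fold change 2.56, SE 0.17, edgeR adjusted p = 4.01e-07), the lysyl hydroxylase gene Plod1 from 17.4 to 74.9 (2.25, SE 0.18, adjusted p = 1.40e-06) and the prolyl 4-hydroxylase gene P4ha1 from 23.3 to 63.7 (1.60, SE 0.17, adjusted p = 1.19e-05). These enzymes also act on fibrillar collagens. Genes of heparan sulfate synthesis and editing, which build the chains that perlecan and agrin carry, gave 2 of 15 that rose against E10.5 at either cornea stage, near the 13.6% of all genes at E14.5 and under the 19.4% at E16.5. Those at E16.5 were Xylt1, which starts the chains, from 1.59 to 5.13 FPKM (1.83, SE 0.19, edgeR adjusted p = 9.70e-06), and the 6-O-sulfotransferase gene Hs6st1 from 14.7 to 40.0 (1.59, SE 0.11, adjusted p = 4.98e-07). Between E14.5 and E16.5 the edgeR count of these 15 genes called was 0, with 3 higher and 2 lower at an unadjusted p under 0.05, and DESeq2 and limma gave 0 as well.

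Cells hold on to the basement membrane through integrins, dystroglycan and other receptors. Of 12 receptor genes 11 were tested, Musk being too low, and 6 rose in E14.5 against E10.5, where 13.6% of all genes did, with 5 not called. In E16.5 against E10.5, 7 rose and 1 fell, where 19.4% and 15.4% of all genes did. Between the cornea stages 1 rose and 1 fell, near the 6.26% and 5.47% of all genes. Integrin β4, the receptor subunit of hemidesmosomes, rose most (Itgb4, 0.350 to 57.6 FPKM, log2 fold change 7.51, SE 0.55, edgeR adjusted p = 8.40e-07), followed by the laminin α5 receptor gene Bcam from 26.9 to 287 (3.57, SE 0.20, adjusted p = 1.94e-07) and the collagen receptor gene Ddr1 from 15.4 to 114 (3.03, SE 0.18, adjusted p = 2.49e-07). The 1 that fell was Itga1, a collagen IV receptor subunit, at -2.52 (edgeR adjusted p = 7.32e-06) and is named because no other fell. Of 10 proteases and inhibitors, 2 rose and 5 fell at E14.5 (13.6% and 7.97% of all genes), and 5 rose and 4 fell at E16.5 (19.4% and 15.4%), both against E10.5. Mmp2, a gelatinase that cleaves collagen IV, went from 61.7 to 159 FPKM (1.52, SE 0.20, edgeR adjusted p = 4.95e-05), Mmp14 from 52.4 to 124 (1.39, SE 0.14, adjusted p = 8.69e-06) and Bmp1 from 42.2 to 91.4 (1.30, SE 0.09, adjusted p = 6.28e-07). Mmp15 fell from 13.6 to 3.74 FPKM (-1.71, SE 0.21, edgeR adjusted p = 2.95e-05), Adamts1 from 14.2 to 4.74 (-1.44, SE 0.19, adjusted p = 4.74e-05) and the inhibitor gene Timp1 from 7.86 to 2.88 (-1.30, SE 0.32, adjusted p = 0.00379).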

How the data were processed

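Per the methods and the labels, poly(A) RNA was sequenced on an Illumina instrument, the authors filtered reads by adaptors, unknown bases and quality, mapped them with Bowtie2 and HISAT to GRCm38 and quantified genes with RSEM. Versions of these tools are not given in the sources used here. Each of the 9 deposited files holds, per gene, the estimated count of reads (expected count, not normalized) and an FPKM that the authors scaled by transcript length and mapped fragments. Genes missing from a file were set to 0. Entrez identifiers were matched to RefSeq symbols for 19312 of 19369 genes. Stages and replicate numbers come from the titles of the samples, and p-values measure the spread between these pooled samples.

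Expected counts were rounded to whole numbers, filtered with filterByExpr, scaled by TMM and fitted with the quasi-likelihood test of edgeR 4.0.16 (R 4.3.3), 1 model of stage over all 9 samples. The standard error is the size of the log2 fold change divided by the root of F. Calls needed a Benjamini-Hochberg adjusted p under 0.05 and a log2 fold change of 1 or more in size. A sample of 3 counts or fewer was read as the floor, and intervals from counts would cover counting error only. Within-sample log2 ratios used FPKM plus 0.01 and two-sided exact permutation tests of an F statistic, adjusted over 6 values (5 ratios and the share of Col4a1 and Col4a2). The scripts were tested on simulated data.

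The members and gene lists were chosen with earlier results of these data known. Named were all 10 members, for each list the 3 called genes that rose most and the 3 that fell most from E10.5 to E16.5 at a mean of at least 5 FPKM in either stage, and the 3 genes most like each member of at least 5 FPKM. Some genes that this rule picks are not reported here. Laminin chains and Itga1 named beyond that rule were chosen after their values were seen. Alternatives were library totals, DESeq2 1.42.0, no filter, limma 3.58.1 on log2(FPKM + 1) or log2(FPKM + 0.1), the NOISeq criterion of the study (probability at least 0.8), adjusted p alone, 2 stages only, a replicate block and each sample left out. Replicate numbers did not pair the samples: deviations from stage means correlated at -0.0164 on average for 9 pairs of the same number and at 0.00917 for 18 pairs of different numbers. Promoter windows are RefSeq's, on GRCm38.p6.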

Additional observations from a re-analysis of the deposited data

How the results depend on the processing

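With library totals in place of TMM, the median log2 fold change of all genes was 0.03 in E14.5 against E10.5. It was -0.15 in E16.5 against E10.5 and -0.19 in E16.5 against E14.5. With TMM these medians were 0.01, 0.00 and -0.02, and member changes are relative to them. The number of members higher against E10.5, 5 at either stage, was 4 to 5 at E14.5 and 5 to 6 at E16.5 when 1 sample was left out. The genes changed: at E14.5 Hspg2 took the place of Col4a4 without E10.5 replicate 1 or 2 or E14.5 replicate 1 or 2, and Nid1 was lost without E14.5 replicate 3. At E16.5 the same 5 remained in each, joined by Hspg2 without E10.5 replicate 1 and by Col4a3 without E14.5 replicate 1 or 2 or E16.5 replicate 2. Col4a4 was also missing at both stages in the 3 limma fits and by NOISeq, and at E14.5 with the 2 stages alone, where it was not tested. Nor was it tested in the limma fits that asked for a mean of 1 FPKM in some stage. In the limma fit without a filter its E16.5 change of 0.46 passed the test (limma adjusted p = 0.00116) but not the size of a call. Nid2 was called lower at E16.5 in every alternative. With adjusted p alone 1 member, Nid2, was lower in E14.5 against E10.5, in place of 0. In E16.5 against E14.5 the 2 members called higher became 1 with library totals, 1 with the replicate block, 0 in the 3 limma fits, 0 by NOISeq and 1 to 2 with a sample left out. There Nid1 came to 0.96 with library totals, 0.95 in limma and 0.96 by NOISeq, and Col4a4 to 1.34 (edgeR adjusted p = 0.0569) with the block.

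Small uncalled changes turned direction. For E16.5 against E14.5, Col4a1 was -0.0817 with library totals, -0.0808 or -0.0817 in limma and -0.0807 by NOISeq, and Col4a2 was -0.0155 with library totals, -0.0163 or -0.0165 in limma and -0.0146 by NOISeq. With 1 sample left out, Col4a1 ran from -0.33 to 0.10 (E14.5 against E10.5), -0.25 to 0.18 (E16.5 against E10.5) and -0.0540 to 0.24 (E16.5 against E14.5), and in the last comparison Col4a6 ran from -0.15 to 0.13 and Hspg2 from -0.23 to 0.00995. The causes were not tested.

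The difference between E16.5 and E10.5 in log2 ratios ran, with 1 sample left out, from 0.44 to 0.47 for Col4a2 to Col4a1, 0.26 to 0.45 for Col4a6 to Col4a5, -4.44 to -4.10 for Nid2 to Nid1 and -1.06 to -0.71 for Hspg2 to Agrn, and that in the share of Col4a1 and Col4a2 from -22.2 to -18.7 percentage points. With a pseudocount of 0.1 the Col4a4 to Col4a3 difference was 1.36 and passed (exact permutation, adjusted p = 0.0464). In the replicate block, which permutes stages within replicate numbers, the differences are by construction those of the data (0.46, 0.38, -4.24, -0.85 and -20.5 points), and none passed (exact permutation within replicates, adjusted p = 0.111 to 0.133). This test has few arrangements. A single value cannot pass it after adjustment however far its stages lie apart, so the failure does not decide whether a difference holds. Among the members, depth limits Col4a3 and Col4a4 most, and to a lesser degree Col4a6 at E10.5.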
